A study of Saccharomyces cerevisiae with 45 samples.

Results

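The 56 genes for the proteins of the cytosolic small ribosomal subunit of budding yeast, RPS0A to RPS31, were followed from dormant spores through germination with and without rapamycin. They were taken by name from the 6723 genes of the count table, by a rule that uses no measured value, although earlier results of these data were known when the set was proposed. They encode 32 proteins, 24 of them from a pair of closely related genes (paralogs, the A and B copies) and 8 from a single gene. All 56 passed the filter on low counts in each of the 29 comparisons made, and the lowest count of any member in any library was 17, for RPS28B.

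The samples were 45 poly-A RNA-Seq libraries from spores of the SK1 strain, a laboratory yeast that sporulates readily, in 15 groups of 3 replicates lettered A, B and C. Purified spores were the starting point. The other groups were spores transferred into nutrient medium with DMSO, the solvent control, or with 2 μM rapamycin (2000 nM in the labels), each at 0, 10, 30 and 60 min and at 120, 240 and 360 min. Diploids had been sporulated and the spores freed by zymolyase and sonication, and the time points were aliquots of the same cultures. The sources used here do not say whether the 3 replicates came from separate sporulations, so the p-values measure the spread between these samples, which may be technical.

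Ribosomal protein genes are transcribed together by RNA polymerase II in growing yeast, and their mRNAs are among the most abundant of the cell. The factor Rap1 binds most of their promoters and recruits Fhl1, whose co-activator Ifh1 is displaced when nutrients run out. Rapamycin inhibits TORC1, a kinase complex that signals nutrient supply to these genes through Sfp1 and Sch9.

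Levels are counts per 1000000 counts of a library (CPM), scaled by TMM, a method that equalises the bulk of genes, over all 45 libraries. No RNA standard was added, so every level is relative to the other transcripts of the library. In these bulk samples fewer cells with a transcript and less of it per cell cannot be told apart. A member was called changed where edgeR's quasi-likelihood test gave a p under 0.05, adjusted over every gene tested, and the change was at least 2-fold. The standard error (SE) belongs to the log2 fold change.

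Library totals ran from 7736397 to 14522407 counts, with a median of 10942773. Transcripts of GAP1, MEP2 and DIP5, nitrogen-uptake genes that rise when TORC1 is inhibited, were all called higher with rapamycin at 60, 120, 240 and 360 min. Replicate A of rapamycin at 360 min stood apart. It was the lowest of its group for 50 of the 56 members, and its median log2 level over spores was 2.13, against 2.83 and 2.74 in replicates B and C. RPS28B measured 4.40 CPM there and 49.4 and 29.2 CPM in the others. Replicate C of DMSO at 60 min was the highest of its group for all 56 members, and replicate B of rapamycin at 60 min was the highest for 53.

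The stretches upstream of 5 members are shown because RPS9A, RPS14B and RPS22A stood out in timing or size of change in the results that follow, with the paralogs RPS9B and RPS14A beside them. Rap1 sites of ribosomal protein genes lie some distance before the start codon. The window shown is the 300 bases that end 200 bases before it. The short core CCNNACAT, where N is any base, was searched on both strands and stands in capitals. It is found in 35 of 56 members (62.5%), against 673 of 6000 genes (11.2%) and 50 of 81 large-subunit genes (61.7%) with the same window. This window and core were chosen after a first search. In the first window searched, nearer the start codon, the same core is found in 11 of 56 members (19.6%) and 9.0% of genes. Sequences are from the R64 reference genome (RefSeq), not from SK1, to which the reads were aligned. RPS9A (YPL081W) is read on the plus strand at chrXVI:404450-404749, RPS9B (YBR189W) on the plus strand at chrII:604008-604307, RPS14A (YCR031C) on the minus strand at chrIII:178421-178720, RPS14B (YJL191W) on the plus strand at chrX:73287-73586 and RPS22A (YJL190C) on the minus strand at chrX:75503-75802.
RPS9A: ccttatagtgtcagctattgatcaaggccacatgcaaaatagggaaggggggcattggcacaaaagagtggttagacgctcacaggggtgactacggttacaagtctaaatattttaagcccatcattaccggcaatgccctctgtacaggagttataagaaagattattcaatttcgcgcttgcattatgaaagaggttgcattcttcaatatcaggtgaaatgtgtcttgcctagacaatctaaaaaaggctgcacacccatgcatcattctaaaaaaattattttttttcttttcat
RPS9B: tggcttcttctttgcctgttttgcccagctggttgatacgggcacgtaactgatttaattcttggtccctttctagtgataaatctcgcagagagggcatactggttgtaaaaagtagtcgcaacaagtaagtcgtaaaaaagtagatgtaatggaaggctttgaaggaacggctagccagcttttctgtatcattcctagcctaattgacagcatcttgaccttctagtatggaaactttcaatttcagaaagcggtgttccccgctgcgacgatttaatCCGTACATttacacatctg
RPS14A: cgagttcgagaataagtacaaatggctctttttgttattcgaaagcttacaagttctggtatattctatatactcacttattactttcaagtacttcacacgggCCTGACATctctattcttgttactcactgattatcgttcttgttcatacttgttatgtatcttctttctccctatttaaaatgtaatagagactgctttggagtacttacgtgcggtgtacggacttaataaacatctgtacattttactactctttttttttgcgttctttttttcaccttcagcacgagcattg
RPS14B: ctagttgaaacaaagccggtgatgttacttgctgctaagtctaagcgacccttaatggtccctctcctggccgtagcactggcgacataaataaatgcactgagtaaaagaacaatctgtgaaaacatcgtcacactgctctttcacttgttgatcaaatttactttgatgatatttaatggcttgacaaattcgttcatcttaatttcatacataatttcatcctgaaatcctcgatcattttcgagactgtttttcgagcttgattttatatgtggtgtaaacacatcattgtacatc
RPS22A: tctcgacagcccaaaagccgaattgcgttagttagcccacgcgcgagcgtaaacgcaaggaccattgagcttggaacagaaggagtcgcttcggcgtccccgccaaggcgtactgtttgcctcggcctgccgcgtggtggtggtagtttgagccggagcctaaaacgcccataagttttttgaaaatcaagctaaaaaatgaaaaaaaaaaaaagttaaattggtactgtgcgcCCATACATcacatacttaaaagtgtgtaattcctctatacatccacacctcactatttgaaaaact
The core occurs once in RPS9B, RPS14A and RPS22A, at 219, 396 and 266 bases before the start codon, and not in this window of RPS9A or RPS14B. A match describes letters only, and its absence says nothing about binding.

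The first comparison asks when the set came up during germination without drug. Members together held 0.80%, 0.86% and 0.87% of the counts of the purified spore libraries. In DMSO their share was 0.936% ± 0.049 (SD, n = 3) at 0 min, 1.13% ± 0.080 at 10 min and 2.49% ± 0.18 at 30 min. It then reached 5.04% ± 0.43 at 60 min, 8.49% ± 0.50 at 120 min and 8.86% ± 0.39 at 240 min, before 6.85% ± 0.20 at 360 min. Every DMSO library, those of 0 min included, lay above the 3 spore libraries.

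**Figure D1:**
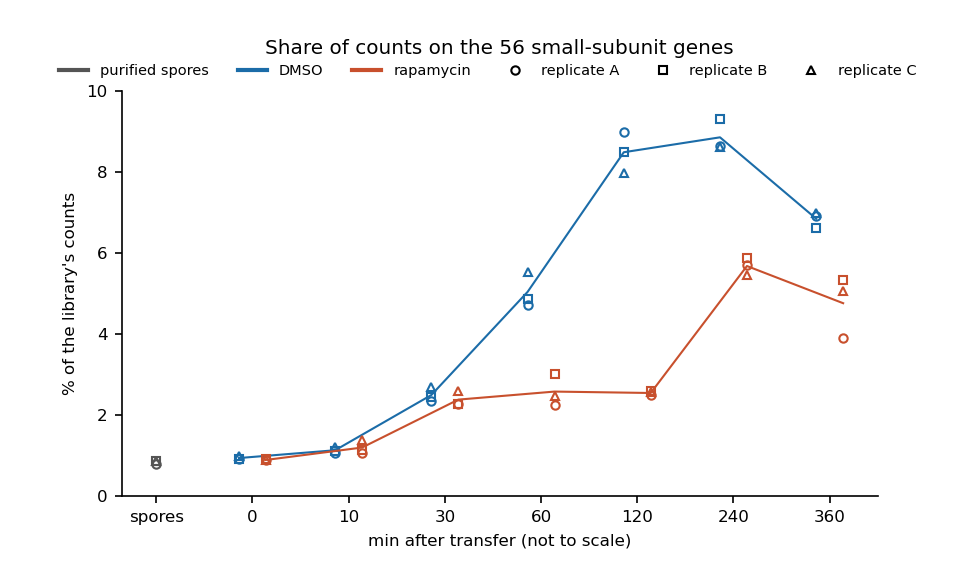
Share of each library's counts on the 56 small-subunit genes (vertical axis, percent) by time after transfer (horizontal axis, min, not to scale). Each symbol is a library and the lines join the means of 3. The DMSO means climb from 0.936% to 8.86%, while the rapamycin means stay near 2.5% from 30 to 120 min and reach 5.68% at 240 min.

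Against purified spores, edgeR called 0 members at 0 min in DMSO (0% of genes called higher), with 13 at an unadjusted p under 0.05 and 0 calls by DESeq2 or the edgeR exact test. At 10 min, 3 of 56 were higher (15.4% of all genes tested), and at 30 min, 42 of 56 (24.3%). At 60 min 55 were higher (28.5%). All 56 were higher at 120 and 240 min (31% and 30.1%), and 55 at 360 min (29.4%). The median member changed by 0.12, 1.26, 2.84 and 3.88 on the log2 scale at 10, 30, 60 and 120 min, where the median of all genes tested was within 0.04 of 0. The set therefore stood at a median of 14.7-fold its spore level at 120 min.

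Step by step, 42 members rose from 10 to 30 min (10.8% of genes rose) and 50 from 30 to 60 min (8.81%). A further 24 rose from 60 to 120 min (6.44%), and all 56 passed the adjusted p there without the 2-fold minimum (65.9% of genes). This count depended on 1 library, being 16 without replicate A and 33 without replicate C of DMSO at 60 min, and it was 6 when only library size was used for scaling. From 120 to 240 min edgeR called 0 members (23% of genes called either way), with 7 at an unadjusted p under 0.05 and 0 by DESeq2 or the exact test. From 240 to 360 min 0 members were called (6.71%), with 53 at an unadjusted p under 0.05 and 0 by the other 2 tools. At the adjusted p alone, 50 of 56 fell in that last step (42.5% of genes passed), with a median of -0.51.

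**Figure D2:**
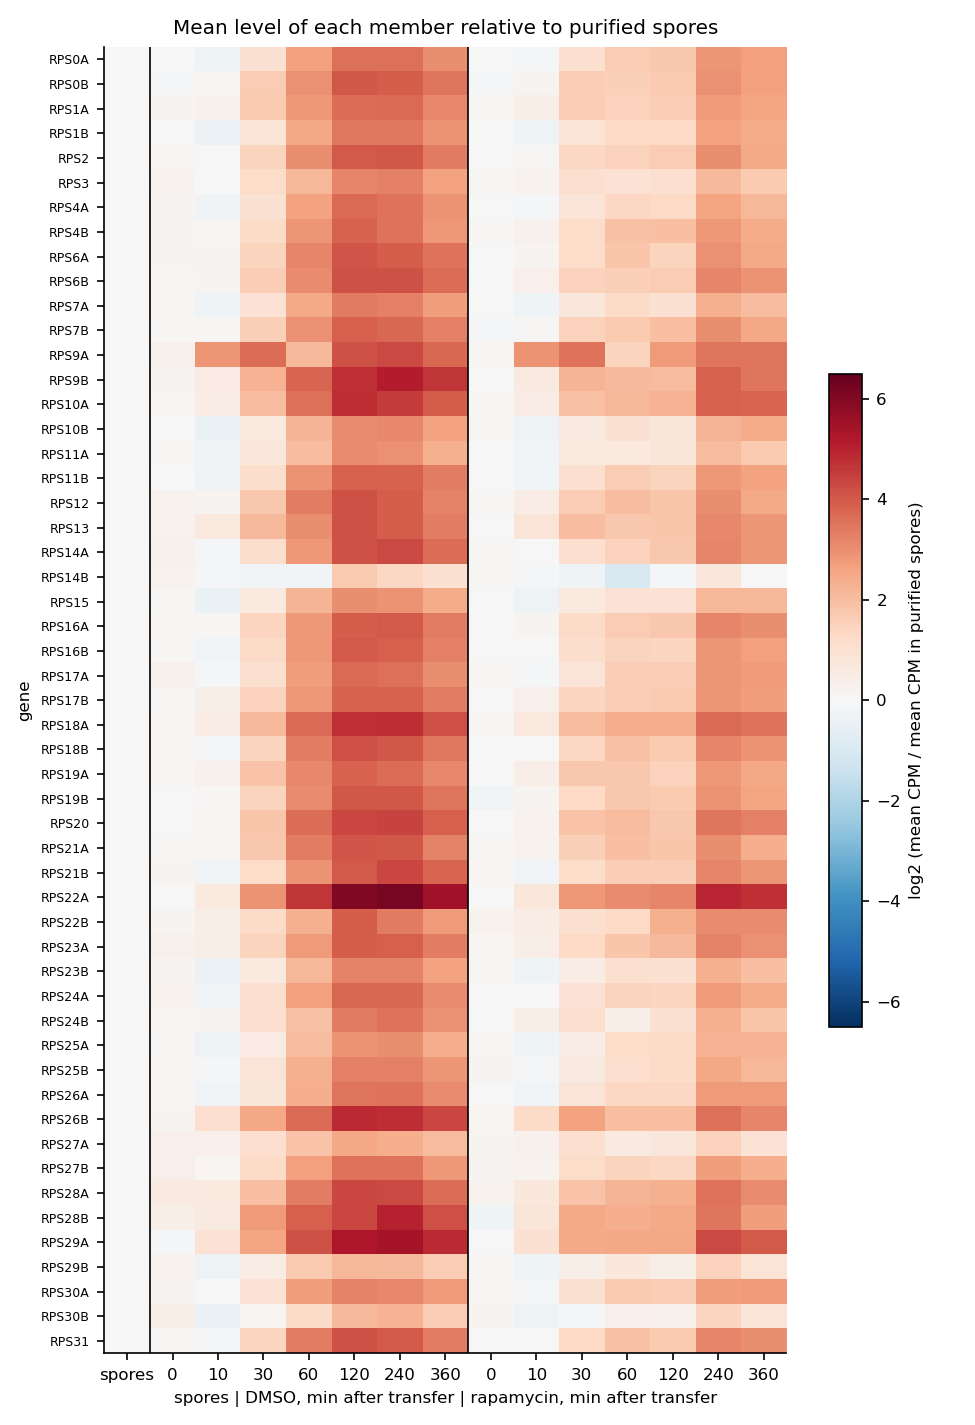
Log2 ratio of each member's mean CPM to its mean in purified spores (colour scale), with 53 of the 56 genes as rows and the 15 groups as columns (spores, then DMSO and rapamycin by min). Most rows darken at 60 and 120 min in DMSO and at 240 min in rapamycin, with RPS9A early and RPS14B still pale at 60 min in DMSO.

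The peak of the mean level fell at 120 min for 32 members and at 240 min for 24. On the log2 scale, 51 of 56 members first passed the midpoint between their spore level and their peak at 60 min. RPS13, RPS26B and RPS28B had passed it at 30 min, RPS9A at 10 min, and RPS14B only at 120 min. By 60 min the median member had covered 74.3% of its log2 rise from spores to DMSO at 120 min. At 30 min that share ran from -10.9% for RPS14B to 86.9% for RPS9A, with a median of 34.1%. Most members thus passed the midpoint in the same sampling interval, though not necessarily together. Size also differed: at 120 min the log2 rise ranged from 1.75 for RPS14B to 6.05 for RPS22A.

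RPS22A encodes a small-subunit protein that contacts the ribosomal RNA of the body, and it rose most of the set. It measured 31.8, 44.2 and 43.7 CPM in the spore libraries A to C and 816, 976 and 1223 CPM in DMSO at 60 min. The 2 groups lay far apart, and the log2 fold change was 4.67 (SE 0.18, adjusted p = 1.6e-10). At 120 min RPS22A stood at 2563, 2839 and 2408 CPM.

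RPS29A (YLR388W, chrXII:898651-898821), for a small zinc-binding protein of the subunit's head, rose from 14.1, 20.4 and 18.4 CPM in spores to 278, 260 and 379 CPM at 60 min. The log2 fold change was 4.13 (SE 0.17, adjusted p = 2.3e-10). It was 1 of the 2 members past both thresholds from 0 to 10 min. At 10 min it measured 25.7, 28.9 and 47.5 CPM against 14.0, 18.7 and 17.3 CPM at 0 min. The step had a log2 fold change of 1.11 (SE 0.22, adjusted p = 0.00073), and the groups did not overlap.

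RPS28B (YLR264W, chrXII:673131-673334), whose protein is known to direct the decay of its own mRNA, was the least abundant member. Its spore libraries held 4.21, 4.29 and 4.15 CPM and the DMSO 60 min libraries 49.99, 63.8 and 72.5 CPM. The log2 fold change was 3.89 (SE 0.17, adjusted p = 4.6e-10).

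At the other end, RPS14B did not rise for the first hour. RPS14B encodes the same platform protein as RPS14A, and the protein is known to repress RPS14B by binding its transcript. RPS14B measured 113, 138 and 148 CPM in spores and 107, 96.7 and 144 CPM in DMSO at 60 min, overlapping groups with a log2 fold change of -0.19 (SE 0.14, adjusted p = 0.23). It was the 1 member not called there. By 120 min it had reached 421, 479 and 419 CPM, above every earlier library, and the step from 60 min was called at 1.90 (SE 0.13, adjusted p = 3.3e-07). At 360 min it missed the 2-fold minimum against spores, at 0.96 (SE 0.14, adjusted p = 1.2e-05), the 1 member to do so. RPS14A, its paralog, went from 120, 121 and 137 CPM in spores to 865, 816 and 998 CPM at 60 min. Of the pair, the A copy was thus called and the B copy was not.

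RPS14B and RPS22A, the smallest and the largest rise of the set at 60 min, are neighbours. RPS14B lies at chrX:73787-74611 on the plus strand with 1 intron, and RPS22A at chrX:74910-75302 on the minus strand with none. Their coding ends face each other across 298 bases. The authors counted reads by strand, so reads of the 2 genes were told apart.

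RPS30B was next to last. RPS30B, 1 of 2 genes for a small basic protein, measured 140, 182 and 175 CPM in spores and 315, 349 and 493 CPM in DMSO at 60 min, a log2 fold change of 1.23 (SE 0.16, adjusted p = 1.1e-05). The groups were apart. Values of RPS6A and RPS6B are uncertain against each other, since 53.4% of their read-length windows occur elsewhere in the R64 genome. That share is 0 for 32 members. RPS22B shares its strand and span with a snoRNA gene.

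RPS9A followed a course of its own. With RPS9B it encodes a body protein that binds early in assembly. It measured 24.1, 26.5 and 31.4 CPM in spores and 37.6, 25.6 and 36.1 CPM at 0 min in DMSO. After 10 min it measured 202, 180 and 210 CPM, far above both. The step from 0 to 10 min was called at 2.65 on the log2 scale (SE 0.13, adjusted p = 6.5e-08), and RPS9A and RPS29A were the 2 members called in it (13.8% of genes rose). The level reached 327, 297 and 384 CPM at 30 min, and then fell to 120, 119 and 120 CPM at 60 min. That fall of 1.52 on the log2 scale was called (SE 0.10, adjusted p = 1.5e-06), the 1 member lower in a step where 50 rose (14.2% of genes fell). It rose again to 497, 537 and 433 CPM at 120 min (2.01, SE 0.09, adjusted p = 1.3e-08).

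The same early rise and fall was measured in rapamycin. RPS9A stood at 213, 177 and 232 CPM at 10 min, 341, 291 and 318 CPM at 30 min and 74.0, 75.5 and 74.4 CPM at 60 min. The fall from 30 to 60 min was 2.11 on the log2 scale (SE 0.09, adjusted p = 1.4e-05), and RPS9A was the only member called in that step (6.36% of genes fell). RPS9B measured 475, 461 and 504 CPM at 30 min in DMSO and 1410, 1263 and 1435 CPM at 60 min, all 3 libraries above those of 30 min.

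**Figure D3:**
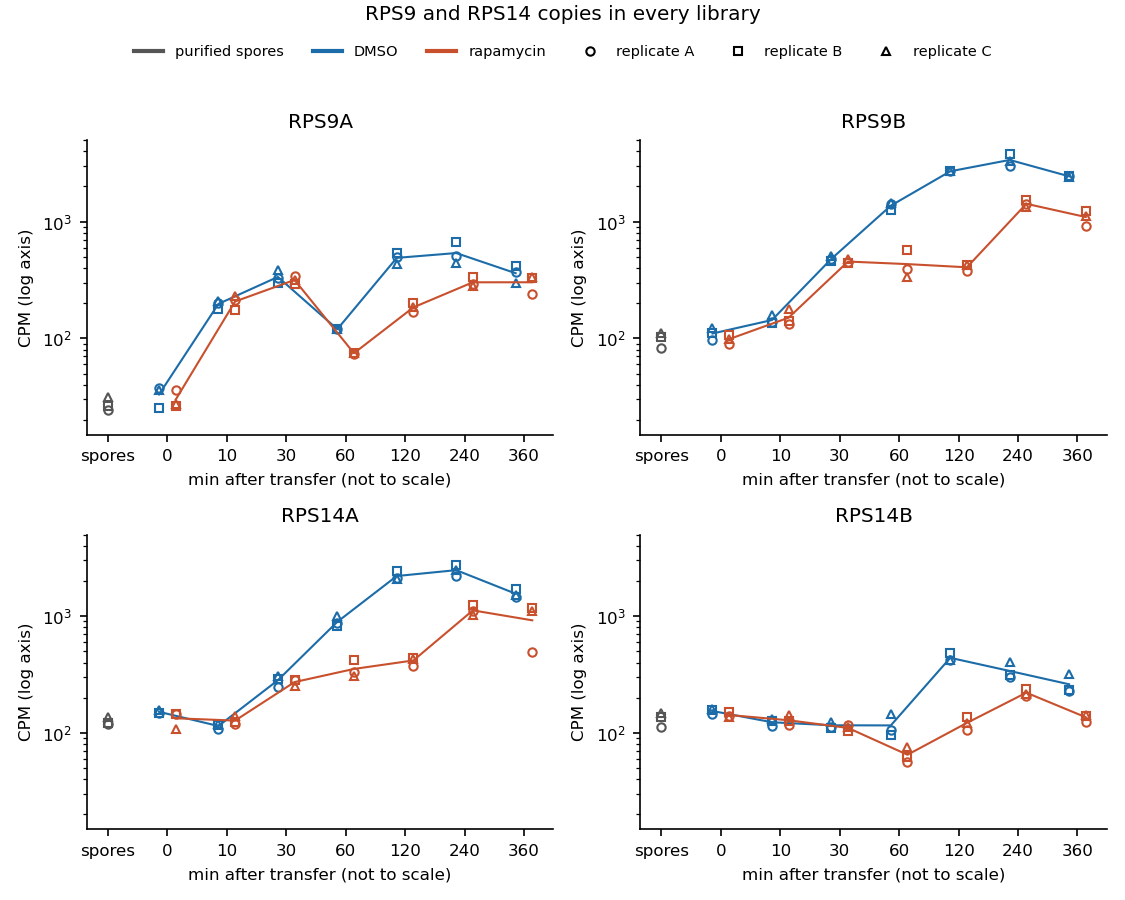
CPM (log axis) of RPS9A, RPS9B, RPS14A and RPS14B in each of the 45 libraries by min after transfer (not to scale), with lines through the group means. RPS9A rises to 30 min and dips at 60 min in both cultures. Its highest mean is at 30 min in rapamycin but at 240 min in DMSO. RPS14B stays at its spore level to 60 min in DMSO while RPS14A is 7.16-fold higher by then.

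The second comparison asks when rapamycin changed the set. Nothing was called up to 30 min: edgeR called 0 members at 0, 10 and 30 min, where it called 0%, 0% and 0.0172% of all genes. DESeq2 and the exact test also called 0, and 0, 2 and 4 members had an unadjusted p under 0.05. The medians were -0.10, 0.08 and -0.09 on the log2 scale. Members held 2.38% ± 0.19 of the counts at 30 min with rapamycin and 2.49% ± 0.18 without.

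At 60 min the cultures had parted. Members held 2.25%, 3.01% and 2.48% of the counts in the rapamycin libraries A to C, below the 4.72%, 4.87% and 5.53% in DMSO. Of 56 members, 47 were called lower (8.82% of all genes tested) and 0 higher, with a median log2 fold change of -1.27 and a range from -1.76 to -0.68. All 56 passed the adjusted p alone (60.4% of genes), and for all 56 the lowest DMSO library exceeded the highest rapamycin library (33.5% of genes were apart in that direction). The 9 members short of 2-fold were RPS0A, RPS4B, RPS9A, RPS14B, RPS23A, RPS25A, RPS26A, RPS30A and RPS30B. The count ran from 41 without replicate C of DMSO to 52 without replicate B of rapamycin.

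The scaling matters to this count. With library size alone, the median of all genes was 0.35 rather than 0.04, 23 members were called lower, and the member median was -0.96. Over all genes, 1006 were then higher and 241 lower, against 592 and 501 with TMM. At 120, 240 and 360 min library size placed the median of all genes at 0.54, 0.24 and 0.12, and the member medians at -1.78, -0.64 and -0.63. The direction of the median was the same under both scalings at each of these times.

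RPS26B (YER131W, chrV:423952-424311, no intron) was lowest relative to DMSO at 60 min. Its protein sits where mRNA leaves the subunit and is escorted into it by the chaperone Tsr2. RPS26B measured 790, 686 and 851 CPM in DMSO and 197, 308 and 182 CPM in rapamycin, a log2 fold change of -1.76 (SE 0.21, adjusted p = 0.00039). At 30 min the same cultures had held 318 to 373 CPM and 322 to 408 CPM. RPS26B was thus lower in rapamycin at 60 min than at 30 min in each library, but that step of -0.70 on the log2 scale (adjusted p = 0.022) missed the 2-fold minimum.

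RPS9B measured 1410, 1263 and 1435 CPM in DMSO and 392, 570 and 336 CPM in rapamycin at 60 min (log2 fold change -1.66, SE 0.20, adjusted p = 0.00042). RPS22A, the largest riser, was lower than DMSO at 246, 425 and 322 CPM (log2 fold change -1.60, SE 0.23, adjusted p = 0.00063). In both genes no rapamycin library reached the lowest DMSO library.

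The smallest differences belonged to RPS9A, RPS14B and RPS25A. RPS9A was at its low point in both cultures, 119 to 120 CPM in DMSO and 74.0 to 75.5 CPM in rapamycin (log2 fold change -0.68, SE 0.07, adjusted p = 0.00032). RPS14B measured 56.2, 62.4 and 76.3 CPM in rapamycin, below all 3 DMSO libraries (-0.83, SE 0.17, adjusted p = 0.0032) and below its spore level. RPS25A, for a head protein that several viral RNAs use to enter translation, measured 702, 895 and 802 CPM against 1488, 1320 and 1611 CPM (-0.88, SE 0.15, adjusted p = 0.0013).

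A test of the difference between times, which reuses the 60 min libraries, gave the same count but not all the same members. RPS0A, RPS26A and RPS30A were called in this test and not at 60 min. The reverse held for RPS17A, RPS22B and RPS29B. From 30 to 60 min the effect of rapamycin moved down for 47 members past both thresholds (7.96% of all genes), with a median of -1.20 on the log2 scale, and all 56 passed the adjusted p (50.6% of genes). With library size alone this count was 11. All 56 members were lower at 120 min (15.6% of genes), with a median of -2.29, and all 56 were apart (40.5%). Levels in rapamycin were then between 13.7% (RPS22A) and 37.7% (RPS9A) of those in DMSO, with a median of 20.5%.

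**Figure D4:**
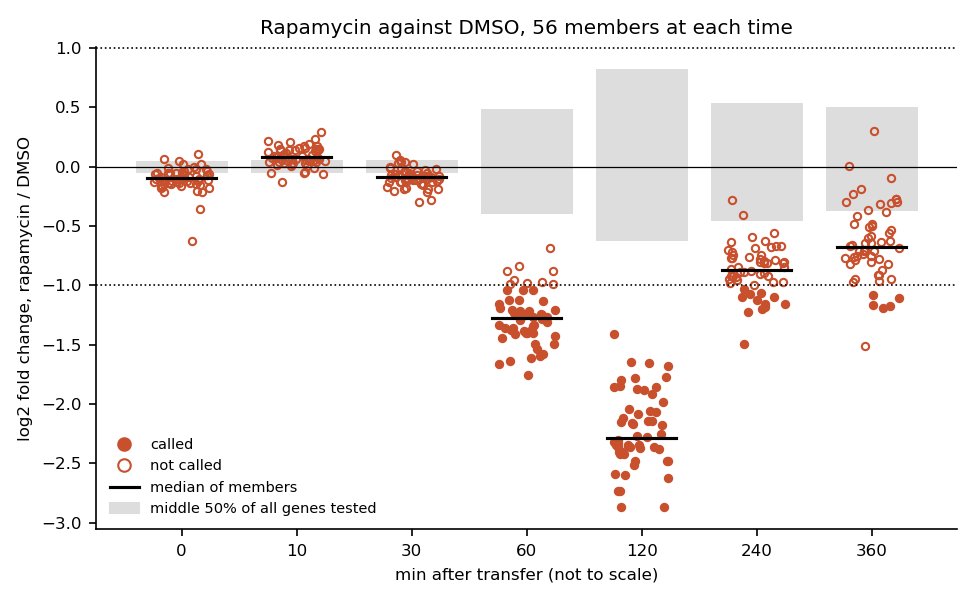
Log2 fold change of rapamycin over DMSO (vertical axis) for the 56 members at each time (horizontal axis, min, not to scale). Filled circles are called members, black bars their median, grey blocks the middle 50% of all genes tested and dotted lines the 2-fold limits. The medians are -1.27, -2.29, -0.87 and -0.68 at 60, 120, 240 and 360 min.

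Within the rapamycin culture, the set was also followed from each time to the next. From 0 to 10 min 4 members rose (13.5% of genes), RPS9A, RPS26B, RPS28B and RPS29A, and from 10 to 30 min 31 rose (10% of genes). From 30 to 60 min edgeR called 0 members higher (5.39% of genes), with a median of 0.31. Without the 2-fold minimum 23 members passed the adjusted p (52% of genes), and 23 were apart above 30 min (30.2%) and 5 below (32.4%). From 60 to 120 min RPS9A and RPS22B rose (2.35% of genes) and the median was 0.01. RPS22B encodes the same protein as RPS22A. From 120 to 240 min 51 of 56 rose (5.74% of genes), by a median of 1.37, and 56 were apart (34.7%). The 5 not called were RPS4B, RPS9A, RPS14B, RPS22B and RPS27A, each at 0.76 to 0.93 on the log2 scale with an adjusted p under 0.05.

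The third comparison asks how far the set recovered. At 240 min 12 members were still called lower than in DMSO (7.68% of genes), with a median of -0.87, although all 56 passed the adjusted p (73.4%) and all 56 were apart (37.1%). The count was 1 with library size alone, and without 1 replicate it ran from 11 (DMSO replicate B) to 19 (DMSO replicate A). The 12 were RPS3, RPS9B, RPS11B, RPS14A, RPS18A, RPS19B, RPS21B, RPS22A, RPS24B, RPS26B, RPS28B and RPS29A. The effect at 240 min differed from that at 120 min for 51 members (16.2% of genes rose in this test), by a median of 1.34. RPS9A, RPS25A, RPS27A, RPS28B and RPS30B were the exceptions, and RPS28B also missed the adjusted p, at 0.36 (SE 0.31, adjusted p = 0.30).

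At 360 min 5 members were called lower (5.3% of genes), RPS6A, RPS9B, RPS24B, RPS26B and RPS27A, and 17 passed the adjusted p (42.6%). The median was -0.68, and 46 were apart below DMSO (28.4%) and 1 above (31.9%). Without rapamycin replicate A, which stood apart, 2 members were called, and without replicate B 12. RPS9B, RPS24B and RPS26B were called at all 4 times from 60 to 360 min. Of these, RPS9B measured 922, 1237 and 1125 CPM in rapamycin at 360 min against 2463, 2463 and 2402 CPM in DMSO, and RPS24B measured 136, 337 and 294 CPM against 525, 615 and 595 CPM. RPS26B stood at 493, 611 and 537 CPM against 1194, 1267 and 1208 CPM.

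RPS22B was the member whose level lay most above DMSO at 360 min, at 458, 478 and 508 CPM against 390, 343 and 432 CPM. The groups did not overlap, but the log2 fold change of 0.30 (SE 0.14) was not called (adjusted p = 0.12). RPS30A was the other member above 0, at 0.01, with overlapping libraries (1223 to 1467 CPM against 1057 to 1636 CPM). The change in effect from 240 to 360 min was called for 0 members (12.6% of genes), with 6 at an unadjusted p under 0.05 and 0 by DESeq2. At the adjusted p alone it passed for RPS10B, RPS22B and RPS25A, 3 of 56 (31.2% of genes), by 0.64, 0.54 and 0.56 on the log2 scale. In rapamycin from 240 to 360 min 0 members were called (10.1% of genes), with 5 at an unadjusted p under 0.05 and 0 by the other 2 tools, and with a median of -0.31.

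The highest mean level in rapamycin came at 240 min for 51 members, at 360 min for RPS10B, RPS25A, RPS26A and RPS30A, and at 30 min for RPS9A. That peak was a median of 50.8% of the DMSO peak, from 35.2% for RPS28B to 73.2% for RPS30A. Level in rapamycin as a percentage of DMSO at the same time had medians of 41.3%, 20.5%, 53.8% and 63.1% at 60, 120, 240 and 360 min. The last value was reached while the DMSO level itself was lower than at 240 min, by the median of -0.51 given above. Replicate A of rapamycin at 360 min, which stood apart, enters that value and the peak times. The median log2 level over spores was 2.13 in it and 2.83 and 2.74 in replicates B and C. In rapamycin at 240 min it ran from 2.84 to 2.98.

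Each pair was next described by the share of its A copy in the counts of A plus B. The median absolute difference over 24 pairs was 8.61 percentage points between spores and DMSO at 60 min, and 3.19 between rapamycin and DMSO at 60 min. No test was made of these shares. For 1 pair, a two-sided exact permutation test on 3 and 3 libraries gives no p under 0.10.

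RPS14 moved most, from 51.3%, 46.7% and 48.0% RPS14A in spores to 89.0%, 89.4% and 87.4% in DMSO at 60 min. RPS29 went from 17.8%, 25.9% and 19.9% RPS29A to 58.4%, 57.0% and 59.8%. RPS22 went from 36.9%, 43.3% and 42.6% RPS22A to 76.9%, 79.3% and 77.4%. In these 3 pairs the libraries of the 2 groups were far apart, and in RPS22 and RPS29 the more abundant copy changed from B to A.

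Under rapamycin at 60 min 23 of 24 pairs stood within 10 points of DMSO. RPS26 was the exception, with 76.3%, 72.8% and 78.7% RPS26A in rapamycin and 63.4%, 64.5% and 65.0% in DMSO. RPS29 had 49.0%, 50.3% and 47.1% RPS29A against 58.4%, 57.0% and 59.8%. RPS9 had the second widest range over all groups, from 8.07% RPS9A in DMSO at 60 min to 57.9% in rapamycin at 10 min.

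**Figure D5:**
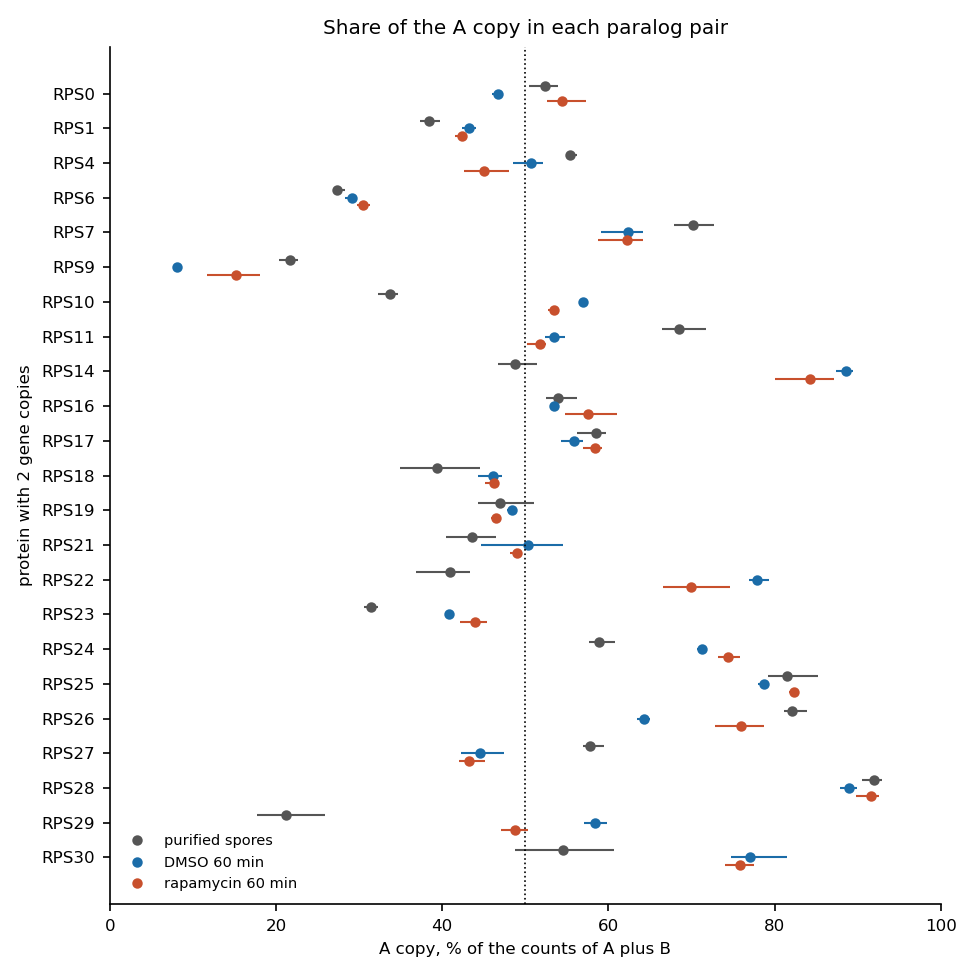
Share of the A copy in the counts of A plus B (horizontal axis, percent) for 23 of the 24 pairs (rows), with points at the mean of 3 libraries and lines from the lowest to the highest. Spores lie away from both 60 min groups in RPS14, RPS22 and RPS29, and RPS26 is the 1 pair where DMSO and rapamycin means differ by more than 10 points.

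The proteins of a subunit are needed in equal numbers, so the summed CPM of the gene copies per kilobase of coding sequence was compared between the 32 proteins. In spores it ran from 207 for RPS6 to 1894 for RPS30, a 9.14-fold span with a coefficient of variation (CV) of 57.5%. In DMSO at 120 min it reached 13469 for RPS30, a 5.76-fold span with a CV of 36.4%. With rapamycin at 120 min the span was 8.72-fold and the CV 43.5%. RPS30 was thus highest in all 3 groups.

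Members were also described by where their proteins sit. Of 22 members for head proteins 21 were lower with rapamycin at 60 min, and of 34 for the body and platform 26 were, with medians of -1.30 and -1.27. Of all genes tested 8.82% were lower at 60 min. Introns mark the set: 36 of 56 members (64.3%) have one, against 4.68% of the 6021 protein-coding genes of the reference. Of members with an intron 29 of 36 were lower at 60 min (median -1.27), and without one 18 of 20 (median -1.31). All 8 single-copy genes were called lower then. They include RPS31, which carries a ubiquitin that is cleaved from the ribosomal protein.

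Other genes of translation were taken as lists. Of 81 large-subunit genes 75 were lower with rapamycin at 60 min (median -1.26) and 79 at 120 min. At 240 min 22 were lower and 1 higher, and at 360 min 5 and 1. ASC1, the small-subunit protein outside the RPS names, was lower at 60 min (-1.25 on the log2 scale), 120 min (-2.07) and 240 min (-1.12), and was not called at 360 min (-0.82). By contrast 0 of 31 genes for mitochondrial small-subunit proteins were called by edgeR at 60 or 120 min (10 and 21 at an unadjusted p under 0.05, 8 and 21 at the adjusted p, medians -0.02 and -0.28), and 6 were lower at 240 min.

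Among 12 assembly factors and chaperones 11 were lower at 60 min, HRR25 (a kinase) excepted, and edgeR called 0 at 240 min (6 at an unadjusted and 5 at an adjusted p under 0.05). TSR2, the escort of the RPS26 protein, was at -1.52 on the log2 scale at 60 min (adjusted p = 0.00043). Of the 12, 5 rose from 0 to 10 min in DMSO, and their median was 0.90 where that of the members was -0.04. Of 18 translation factors 5 were lower at 60 min and 17 at 120 min.

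Of 11 regulators of ribosomal protein genes, edgeR called 0 at 60 min, and 7 passed the adjusted p but missed the 2-fold minimum. The co-activator gene IFH1 was at -0.94 (adjusted p = 0.00053), after a rise of 1.33 over spores in DMSO. At 120 min RAP1 (-1.24) and HMO1 (-1.21), genes for promoter-binding factors, were lower, and CRF1 (1.91), for the co-repressor that competes with Ifh1, was higher. These are transcript levels, which say nothing about the activity of the proteins.

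Transcripts of the dormant state differed between the cultures at the same times. Of 5 dormancy and stress genes (HSP12, HSP26, CTT1, TPS2 and SIP18), 2 were higher with rapamycin at 60 min, 5 at 120 and 240 min and 4 at 360 min. Their summed level ran from 925 to 1243 CPM in DMSO and 1108 to 1758 CPM in rapamycin at 60 min, and from 185 to 349 CPM and 743 to 1290 CPM at 120 min, against 17952 to 23286 CPM in spores. Of 7 late sporulation genes 6 were tested at 60 min and edgeR called 0 (2 at an unadjusted p under 0.05), and their sum ran from 923 to 1347 CPM in DMSO and 783 to 1304 CPM in rapamycin. At 240 min all 5 tested were higher, with sums of 46.8 to 50.9 CPM and 157 to 262 CPM. For 6 genes of cycling cells the sum was 169 to 227 CPM and 172 to 189 CPM at 60 min, and 355 to 539 CPM and 136 to 154 CPM at 240 min. At 360 min the dormancy sum was 178 to 224 CPM in DMSO and 369 to 530.1 CPM in rapamycin. The sporulation sum was 42.6 to 54.2 CPM and 69.5 to 129 CPM then, with 2 of 5 tested genes called higher, and the cycling sum 1569 to 1714 CPM and 164 to 231 CPM, with all 6 lower. CLN2, a G1 cyclin, was at 0 in 1 library of rapamycin at 120 min and 1 of DMSO at 0 min, and DIT2, of the spore wall, in 1 of DMSO at 240 min. The part of spores that had not germinated in the levels of the members was not tested.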

How the data were processed

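Poly-A RNA of 45 libraries was sequenced strand-specifically by the authors, who used Trimmomatic 0.33 for trimming, hisat2 for alignment to an SK1 genome and HTSeq with the R64-1-1 annotation for counting. The deposited values are raw counts for 6723 genes, of which 139 had no read, and no column was left unused. The build field of the labels names a human assembly and was not followed. HTSeq ran in its default union mode. Apart from that mode, it leaves out reads reported at several places, so genes with near-identical copies can be undercounted.

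Each comparison was fitted to its own 6 libraries (12 for the 3 tests of a change in the rapamycin effect) with edgeR 4.0.16 in R 4.3.3 (quasi-likelihood test, TMM), over genes above 1 CPM in at least 3 libraries, with Benjamini-Hochberg adjustment. The time points share libraries, so steps and contrasts are not independent. Alternatives were scaling by library size, DESeq2 1.42.0, the edgeR exact test, a count minimum, no filter, no 2-fold minimum, the replicate letter as a block, and leaving out each replicate. The script was tested on simulated data.

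Values per library are given for the 3 members at each end of 2 contrasts (DMSO at 60 min against spores, rapamycin against DMSO at 60 min), for those called between 0 and 10 min, for the pairs whose shares moved most and for members against the common direction. A few members' own values are not reported here, and they count in the totals. RPS24B and RPS26B at 360 min were added after their values were seen. The members and gene lists were chosen with earlier results of these data known. RPP1, an RNase P subunit, was removed from the large-subunit list for its name alone. Head, body and platform positions were assigned from textbook knowledge.

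Promoters were read from the R64 genome before the coding start. The first window searched ran from 250 bases before to 50 after it (short core in 11 of 56 members and 9.0% of genes; a longer Rap1 core in 1 member there and in 10 of 56 in the printed window, against 1.45% of genes), and the printed window and short core were chosen afterwards. In the printed window the Abf1 consensus occurred in 35.7% of members and 25.8% of genes, TCTGCC in 10.7% and 9.8%, GATGAG in 10.7% and 16.2%, and GATAAG in 5.36% and 13.9%, both strands searched. Replicates differed by more than sampling noise, with a chi-square per degree of freedom of at least 5.49. Same-letter libraries deviated together (r over 0.1 for every letter) in the comparisons up to 30 min and in most steps.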

Additional observations from a re-analysis of the deposited data

Results flagged for a closer look

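The effect of rapamycin differed between times by a test of the difference itself. From 30 to 60 min it moved down for 47 members (7.96% of all genes). From 120 to 240 min it moved up for 51 (16.2% of all genes). Both counts are at an adjusted p under 0.05 and at least 2-fold. From 240 to 360 min the adjusted p alone was passed by RPS10B (0.64 on the log2 scale), RPS22B (0.54) and RPS25A (0.56). Replicate A of rapamycin at 360 min, the lowest of its group for 50 of the 56 members, enters these 3 values.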

How the results depend on the processing

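With library sizes in place of TMM, which put the all-gene median at up to 0.54 on the log2 scale (rapamycin against DMSO at 120 min), 7 members were called at 10 min against spores, 23 and 1 for rapamycin against DMSO at 60 and 240 min, 4 from 0 to 10 min and 6 from 60 to 120 min in DMSO, 1 from 60 to 120 min in rapamycin, and 11 for the change in effect from 30 to 60 min. The member median then reversed from 0 to 10 min in DMSO (0.29 in place of -0.04) and from 60 to 120 min in rapamycin (-0.0062 in place of 0.01). Over all genes, calls higher and lower went from 798 and 434 to 1034 and 220 at 240 min with rapamycin, from 899 and 430 to 1479 and 128 at 10 min against spores, from 363 and 668 to 249 and 871 from 60 to 120 min in DMSO, and from 567 and 465 to 985 and 193 for the change from 30 to 60 min.

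Without the 2-fold minimum, 29 members were called at 10 min against spores (75.5% of all genes), and 56 and 17 for rapamycin against DMSO at 240 and 360 min (73.4% and 42.6%). In DMSO the steps then gave 31 (0 to 10 min, 72.9% of genes), 56 (60 to 120 min, 65.9%), 5 (120 to 240 min, 71.7%) and 50 (240 to 360 min, 42.5%). In rapamycin they gave 26, 55, 23 and 4 up to 120 min (69.6%, 73.9%, 52% and 27.9%) and 2 in the last (36.5%), and the change in effect from 240 to 360 min gave 3 (31.2%).

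Leaving out 1 replicate gave 2 to 3 members at 10 min, 39 to 43 at 30 min and 55 to 56 at 360 min against spores, and 41 to 52, 11 to 19 and 2 to 12 for rapamycin against DMSO at 60, 240 and 360 min. The DMSO steps gave 1 to 3, 38 to 45, 47 to 52 and 16 to 33 up to 120 min. The rapamycin steps gave 3 to 4, 26 to 39, 1 to 3 (60 to 120 min) and 49 to 52 (120 to 240 min), and the changes in effect 36 to 50 and 50 to 54. The member median from 0 to 10 min in DMSO ran from -0.10 (without DMSO 10 min C) to 0.028 (without DMSO 10 min A), and was also above 0 without DMSO 0 min C (0.01). From 60 to 120 min in rapamycin it ran from -0.087 (without A of 60 min) to 0.14 (without B of 60 min), and was also below 0 without C of 60 min (-0.02) or B of 120 min (-0.03). The cause was not tested.

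With the replicate letter as a block, where the letters paired the libraries, 2 in place of 3 members were called at 10 min against spores, 3 in place of 4 from 0 to 10 min in rapamycin and 32 in place of 31 from 10 to 30 min. Where they did not, the block gave 7 at 360 min and 50 for the change from 120 to 240 min. It changed no other count. DESeq2 gave 50 at 60 min and 13 at 240 min. Depth limits RPS28B most, with 17 counts in 1 library.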
